A study of Mus musculus with 12 samples.

Results

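The antioxidant and iron genes described here are 44 genes of the glutathione, thioredoxin and iron handling systems of the mouse. They were taken by symbol and matched to Entrez gene IDs, and all 44 were among the 27179 IDs counted. The cells were NIH3T3, immortalized embryonic fibroblasts of the mouse, of genotype RelA-/- with a Rela-DsRed fusion. RelA is an NF-κB subunit (p65), and every sample of the series shared this genotype. Cells labelled as treated with IL-1b (0.2 ng/mL) stayed in microfluidic devices for 2 h and gave 3 libraries. Neither clonality of the line nor separate cultures for the libraries are stated in the labels, and the spread between libraries may be technical.

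The series also names samples with LPS (100 ng/mL), PAM (0.2 ng/mL) and media, 3 of each. Their 9 tables were copies of the table of IL-1 replicate 3, header included, and were left out. No control library was therefore used here, and the values below are levels in IL-1-treated cells. An effect of IL-1 on a gene cannot be read from them, and neither a fold change against media nor a p-value is given. In bulk RNA, fewer cells that express a gene and less RNA per cell cannot be told apart.

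NRF2, encoded by Nfe2l2, is a transcription factor that KEAP1 holds in the cytoplasm and hands to a ubiquitin ligase. Electrophiles and oxidants modify KEAP1, and NRF2 then enters the nucleus and binds antioxidant response elements with small MAF proteins. Its targets make and recycle glutathione and thioredoxin, the cell's main soluble thiol reductants, and store iron, which otherwise feeds the production of hydroxyl radicals. Ferritin and transferrin receptor transcripts are in addition controlled by iron regulatory proteins, and metallothioneins by the metal-sensing factor MTF1.

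The 3 libraries held 17254518, 18091073 and 18578859 counts. CPM are counts per 1000000 counts of the library, and detection meant at least 1 CPM in all 3 libraries. A count of 0 allows up to 3 counts, or 0.161 to 0.174 CPM in 1 library and 0.0556 CPM over all 3, counting error only. Fibroblast markers were detected in 10 of 10 cases, among them Vim at 3162 ± 76.6 CPM and Col1a2 at 1154 ± 9.66 CPM. Of 9 macrophage markers 5 were detected, with a summed level of 22.6 to 31.8 CPM, while Ptprc had 3, 0 and 6 counts, Adgre1 4, 0 and 0, and Itgam 2, 0 and 0. All 4 hepatocyte markers, and Hba-a1 and Hbb-bs of the erythroid markers, had no count. Replicate 1 stood apart, with all 10 interferon-stimulated genes of a marker list at their highest there, against 45.7% of all detected genes. Their summed level was 410.4, 215 and 184 CPM in replicates 1 to 3. This list was chosen with it known that a library stood apart, so it describes the difference and is no test.

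The gene group was broadly and highly expressed. Of the 44 genes, 42 were detected, against 41.3% of all gene IDs. A mean of 100 CPM or more was reached by 31 of 44, against 8.48% of all IDs and 20.5% of the 11224 detected genes. Only Gpx3 and Gpx7 stayed below 1 CPM. The 44 genes were chosen with earlier results of these data known, so these shares depend on the choice and are no test. In the other lists of the pathway, all 9 NRF2 partners and all 17 supply genes and other NRF2 targets were detected. So were 23 of 36 other glutathione and thiol enzymes, 16 of 21 iron and haem genes and 2 of 4 metal response genes. Together the 44 genes took 1.80%, 1.99% and 1.97% of all counts in replicates 1 to 3, a mean of 1.92% ± 0.11 (SD, n = 3, as for all values with ± below). Fth1 alone made up 36.9% ± 1.3 of the counts of the group, and without Fth1 and Ftl1 the share of all counts was 1.20%. These shares weigh long transcripts more than short ones, since reads come from along the transcript.

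**Figure D1:**
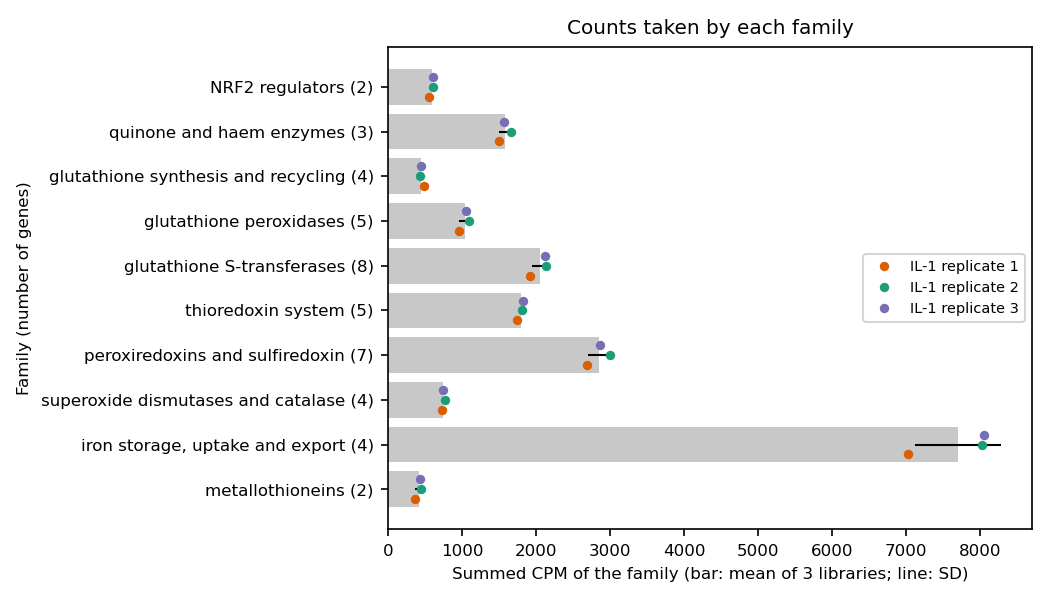
Summed CPM of the 10 gene families (x axis) in the 3 IL-1 libraries, with the number of genes in brackets; bars are means, lines SDs and points libraries. The 4 iron genes take 7709 ± 584 CPM and the peroxiredoxins with sulfiredoxin 2852 ± 154 CPM, and replicate 1 is the lowest point in every family except glutathione synthesis and recycling.

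To compare genes with each other, CPM were divided by the merged exon length of the gene in kb. On this scale the detected genes of the group had a median of 91.6 CPM per kb, against 6.75 over the 10886 detected genes with a known length. Fth1 led at 2041 ± 179 CPM per kb, followed by Hmox1 at 626 ± 37.3 CPM per kb and Txn1 at 608 ± 67.2 CPM per kb. These stood at percentiles 99.9, 99.7 and 99.6 of all detected genes. At the other end were Keap1 at percentile 29.5, Sod3 at 7.74 and Slc40a1 at 1.04. Of the 41 pairs of neighbours in this order, 25 kept their order in all 3 libraries and 15 had SD ranges that did not meet. Hmox1 and Txn1, for example, changed places in 1 library, while Fth1 was clear of both.

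**Figure D2:**
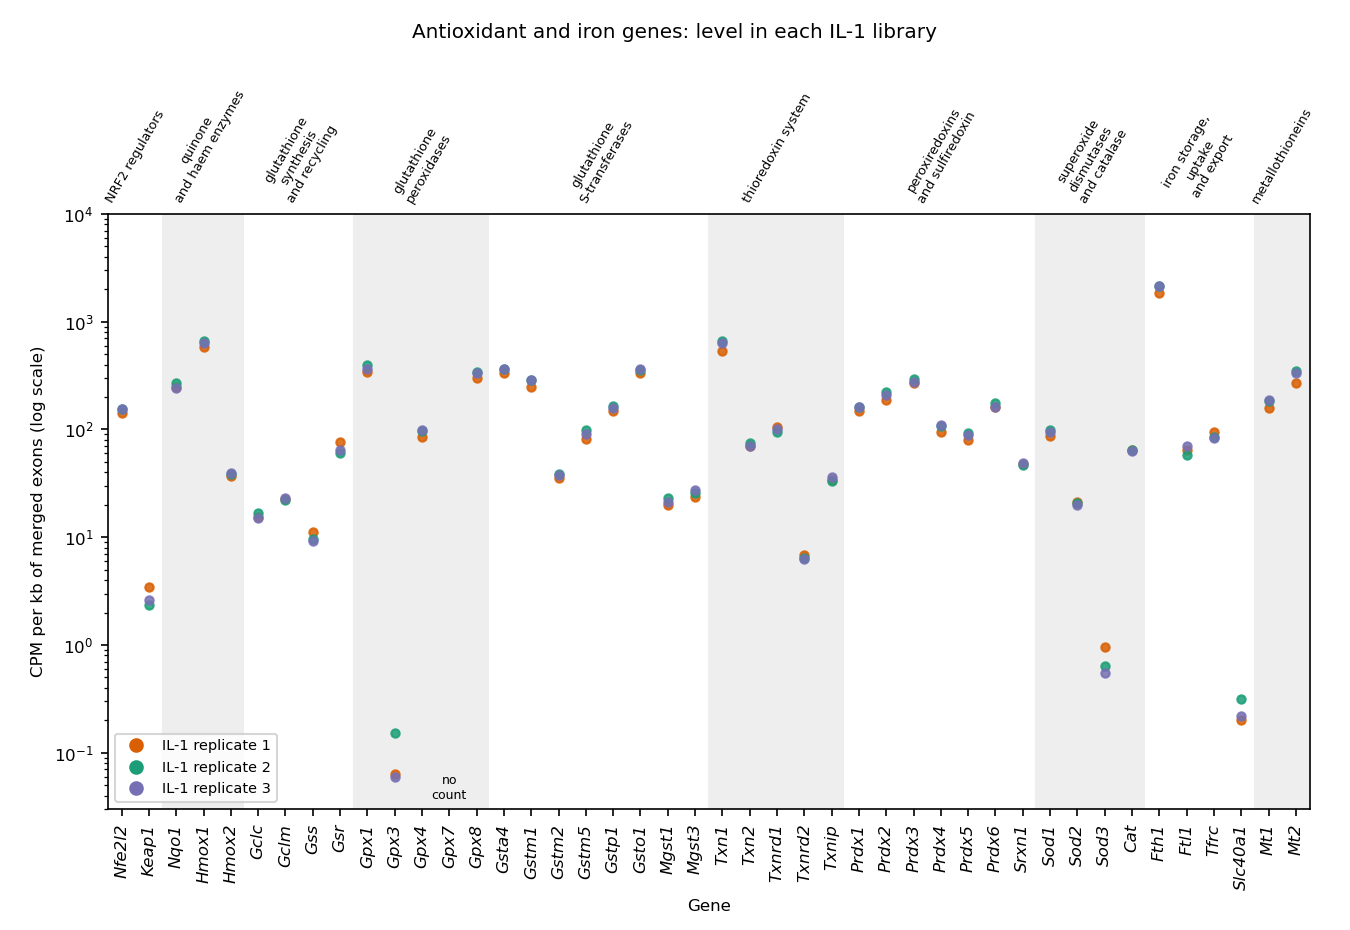
Level of each of the 44 genes in CPM per kb of merged exons (y axis, log scale), grouped by family, with 1 point for each IL-1 library. Fth1 is the highest, Slc40a1 and Sod3 are the lowest of the detected genes, Gpx3 lies below them, and Gpx7 has no count.

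Partner genes were compared within each library as ratios of CPM per kb, for 28 pairs, of which 26 had counts above the floor in both genes. In 25 of the 26 the same gene was higher in all 3 libraries, and in 21 this also held when the length was that of the longest transcript or of the principal transcript (APPRIS, a database of main splice isoforms). An exact two-sided sign-flip test over 3 libraries cannot go below p = 0.25, so no test of a pair is given.

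**Figure D3:**
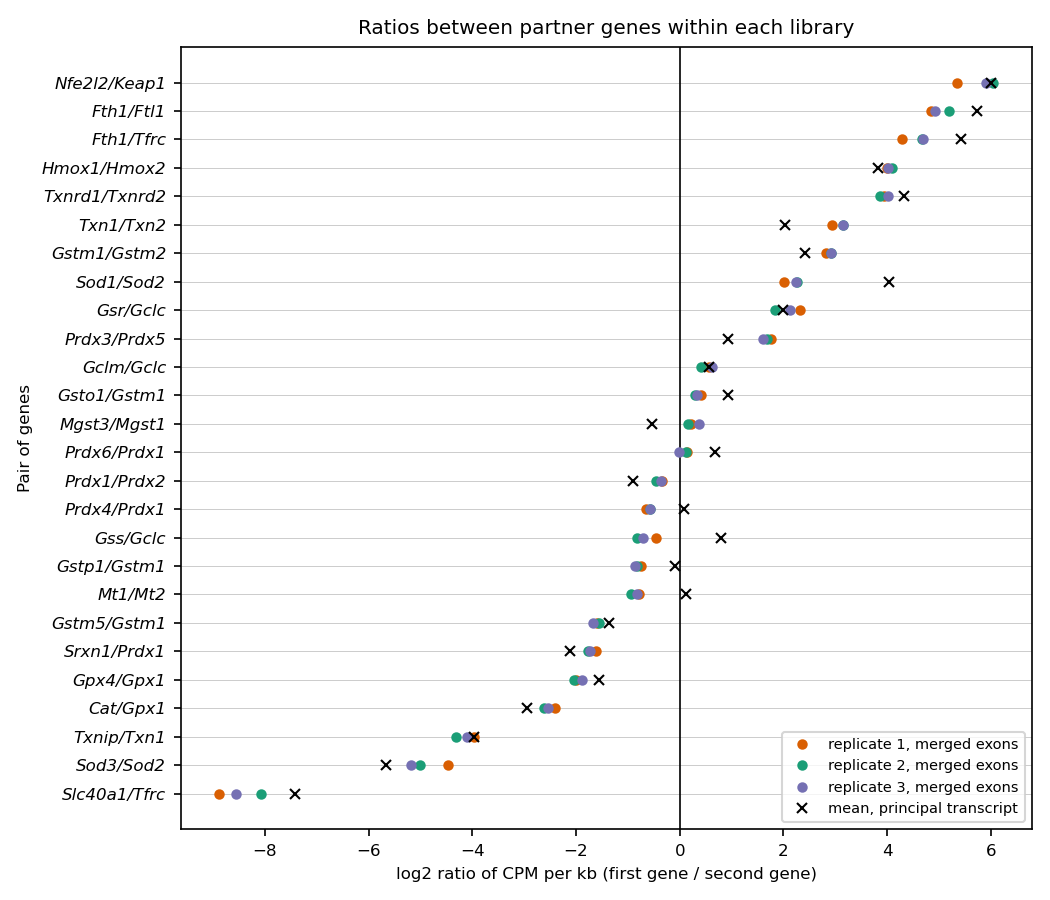
The log2 ratio of CPM per kb between partner genes (x axis) for 26 pairs (y axis), with coloured points for the 3 IL-1 libraries on merged exon length and a cross for the mean on principal transcript length. Nfe2l2/Keap1 has the highest ratio and Slc40a1/Tfrc the lowest, and the crosses of Gss/Gclc, Mgst3/Mgst1, Prdx4/Prdx1 and Mt1/Mt2 lie on the other side of 0 from their points.

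Transcripts of the regulator Nfe2l2 were abundant and those of its inhibitor scarce. Nfe2l2 (Entrez 18024, chromosome 2, 75675513 to 75704663, GRCm38 as for all positions) had 539, 587 and 588 CPM, or 571 ± 27.9 CPM, with replicate 1 lowest. Keap1 (Entrez 50868, chromosome 9, 21229730 to 21239332) had 16.3, 10.9 and 12.2 CPM, from 281, 198 and 226 counts, with replicate 1 highest. The ranges did not overlap, and Nfe2l2 was 54.5-fold higher per kb (log2 ratio 5.77 ± 0.37). Without replicate 1 the mean of Keap1 was 11.6 CPM in place of 13.1. Exons of Gm16754, a gene model next to Keap1, cover 10.9% of the merged exon bases of Keap1, and the counting is not stated to use strand. These are transcript levels, and the activity of NRF2 was not measured.

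All 9 listed partners of the pathway were detected, at a median of 60.4 CPM. The highest was Sqstm1, an autophagy receptor that binds KEAP1, at 1732 ± 69.8 CPM. Next came the related factor Nfe2l1 at 213 ± 6.82 CPM and Rbx1, the RING subunit of the ligase that ubiquitinates NRF2, at 173 ± 15.5 CPM. Of the small MAF partners, Mafg was at 34.00 ± 1.09 CPM, Mafk at 8.75 ± 2.05 CPM and Maff at 5.94 ± 1.64 CPM, and Bach1, a repressor of the same sites, was at 7.40 ± 0.786 CPM.

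The core of the antioxidant response element, TGACNNNGC, was searched on both strands in RefSeq promoter windows of GRCm38.p6 (250 bases before to 50 after each start). Windows were held for 37 of the 44 genes, and none for Gclc, Gsr, Gsta4, Sod3, Prdx6, Slc40a1 and Hmox1. The core was present in 9 of the 48 windows of these genes, or 18.8%, against 12.4% of all 32851 windows. Adding 1 letter, an A after the core, left 1 of the 48, that of Txnrd1, against 3.04% of all windows. A match is a stretch of letters and not a measured binding site. The stretches below, 5′ to 3′ on the strand of the gene, are from the promoters of the regulator itself and of 4 genes at over 100 CPM, and capitals mark the core or its reverse complement:
Nfe2l2 (chr2:75704865-75704913, minus strand): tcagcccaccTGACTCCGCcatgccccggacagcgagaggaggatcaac
Gclm (chr3:122245393-122245461, plus strand): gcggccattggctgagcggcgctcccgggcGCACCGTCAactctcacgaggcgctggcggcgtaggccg
Prdx1 (chr4:116685436-116685504, plus strand): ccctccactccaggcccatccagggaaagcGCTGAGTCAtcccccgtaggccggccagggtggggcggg
Txnrd1 (chr10:82859084-82859152, plus strand): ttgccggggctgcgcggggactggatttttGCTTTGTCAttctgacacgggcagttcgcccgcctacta
Mt2 (chr8:94172509-94172577, plus strand): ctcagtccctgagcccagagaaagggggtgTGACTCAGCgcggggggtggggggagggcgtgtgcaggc
The core in Prdx1 and Mt2 contains TGACTCA, which is also the AP-1 site, so these matches do not tell the motifs apart. Counted from the transcript start of the window, the core began at base -133 in Prdx1, -92 in Txnrd1, -134 in Gclm, -79 in Mt2 and -240 in Nfe2l2. Txnrd1 has windows at several starts, and of these only that at 82858956 to 82859255 held the core. The other windows with a match were those of Srxn1, Gstm5, Mgst1 and Sod1. One form of the NF-κB motif, GGG and TTCC with 3 free bases between them, was searched on both strands and found in 4 of the 48 windows (Txn1, Gpx1, Gpx3 and Txnrd1) and in 5.56% of all windows.

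Among the detoxifying enzymes, the inducible haem oxygenase was the second most abundant transcript of the group per kb. Hmox1 (Entrez 15368, chromosome 8, 75093618 to 75100593), which splits haem into biliverdin, carbon monoxide and iron, had 1025, 1155 and 1106 CPM, lowest in replicate 1. Hmox2, the constitutive form, was at 84.8 ± 2.76 CPM. Hmox1 was 16.3-fold higher per kb (log2 ratio 4.03 ± 0.05), in ranges that did not overlap. Exons of Cdip1 cover 40.2% of the exon bases of Hmox2, so the value of Hmox2 and this ratio are uncertain. Nqo1 (Entrez 18104, chromosome 8, 107388225 to 107403205), which reduces quinones in a single step without radical intermediates, had 388, 418 and 374 CPM, with the 3 values within 1.12-fold of each other. The biliverdin reductases that act after haem oxygenase were present too, with Blvrb at 109 ± 10.05 CPM and Blvra at 70.1 ± 7.91 CPM.

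The 4 genes of glutathione synthesis and recycling lay between percentiles 59.4 (Gss) and 92.04 (Gsr, the recycling enzyme) of all detected genes per kb. Glutamate cysteine ligase, the rate-limiting enzyme, has a catalytic subunit, Gclc (Entrez 14629, chromosome 9, 77754535 to 77794489), and a modifier subunit, Gclm (Entrez 14630, chromosome 3, 122245487 to 122267215). Gclc had 58.2, 63.3 and 56.2 CPM and Gclm had 144, 140.3 and 145 CPM. Per kb, Gclm was 1.45-fold above Gclc (log2 ratio 0.53 ± 0.11), the same way in all 3 libraries and with all 3 lengths. Gclm was among the steadiest genes, with a coefficient of variation (CV, SD over mean) of 1.82% against 1.97% that counting error alone gives. Gss, glutathione synthetase, was at 59.2 ± 6.65 CPM. Whether it stood above or below Gclc per kb depended on the length used, with a log2 ratio of -0.66 on merged exons and 0.80 on the principal transcript. Gsr, which reduces oxidized glutathione with NADPH, had 212, 166 and 179 CPM and was 4.27-fold above Gclc per kb (log2 ratio 2.09 ± 0.24). Gsr and Gss were highest in replicate 1 and Gclc in replicate 2.

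Supply genes for this pathway formed a list of 17, with NADPH enzymes, cystine import and other known NRF2 targets, and all 17 were detected at a median of 104 CPM. The highest were Esd, an esterase that hydrolyses S-formylglutathione, at 1395 ± 101 CPM, the transporter heavy chain Slc3a2 at 1065 ± 32.7 CPM and Abcc1, which exports glutathione conjugates, at 348 ± 29.4 CPM. Slc7a11, the light chain that imports cystine, was at 86.97 ± 2.11 CPM.

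The glutathione peroxidases split into 3 abundant and 2 nearly silent genes. Gpx1 (Entrez 14775, chromosome 9, 108339080 to 108340342), the cytosolic selenoenzyme that reduces hydrogen peroxide, had 493, 571 and 526 CPM. Gpx8 (Entrez 69590, chromosome 13, 113042757 to 113046430), a peroxidase of the endoplasmic reticulum, had 316, 355 and 351 CPM. Gpx4, which reduces lipid hydroperoxides and protects from ferroptosis, had 147, 166 and 169 CPM. Replicate 1 was lowest for all 3. Of the 50-base windows of the Gpx4 transcript, 68.9% also occur in other annotated genes, chiefly the processed copy Gpx4-ps2, and how such reads were counted is not given. Its level at 0.254 times that of Gpx1 per kb (log2 ratio -1.98 ± 0.08) is therefore uncertain. Gpx3, the secreted plasma form, had 2, 5 and 2 counts. Gpx7, the close relative of Gpx8, had no count in any library, and its transcript shares no 50-base window with another gene. Against the floor of 3 counts over the 3 libraries together, Gpx8 was at least 7525-fold higher per kb than Gpx7. Of the other listed peroxidases, Gpx2 had no count, Gpx5 had 1 and Gpx6 had 3 over the 3 libraries.

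All 8 glutathione S-transferases of the group, which conjugate glutathione to electrophiles, were detected, and together they took 2054 ± 116 CPM. Of the other listed transferases, Gsta1, Gsta2, Gsta3, Gstm3, Gstm6, Gstp2, Gstt2 and Gstk1 were not detected. Gstm4, Gstm7, Gstt1, Gstt3, Gstz1 and Mgst2 were. Gsto1 (omega class, Entrez 14873, chromosome 19, 47854973 to 47864790) had 673, 719 and 729 CPM. Gsta4 (alpha class, Entrez 14860, chromosome 9, 78191966 to 78209349), which conjugates the lipid peroxidation product 4-hydroxynonenal, had 422, 463 and 462 CPM. Gstm1 (mu class) had 366, 427 and 424 CPM. All 8 transferases of the group were lowest in replicate 1, against 30.2% of all detected genes. These 8 are short, with merged exons of 1.10 to 2.02 kb. The mu class genes of the group lie together on chromosome 3. Among them Gstm1 was 7.40-fold above Gstm2, at 62.4 ± 3.06 CPM, per kb (log2 ratio 2.89 ± 0.05). Gstm5, at 105, 125 and 115 CPM, was at 0.327 times the level of Gstm1 per kb (log2 ratio -1.61 ± 0.06). Gstm1 shares 23.1% of its 50-base windows with relatives, so the split within the class is uncertain.

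Gstp1 (pi class, Entrez 14870, chromosome 19, 4035411 to 4037912) had 229, 254 and 246 CPM. Its near-identical copies had few reads, with 2, 4 and 1 counts of Gstp2 and 64, 91 and 75 of Gstp-ps, but 62.3% of the 50-base windows of Gstp1 occur in other genes. The microsomal enzymes Mgst1 at 43.2 ± 2.88 CPM and Mgst3 at 28.04 ± 2.27 CPM lay at percentiles 75.8 and 78.8 of all detected genes per kb, and their order turned with the length used (log2 ratio 0.25 on merged exons, -0.53 on the principal transcript). Mgst2, which was not among the 44 genes, stood above both at 186 ± 32.6 CPM. Of the 36 other listed glutathione and thiol enzymes, 23 were detected, and the highest were Txnl1 at 383 ± 13.8 CPM, Txndc17 at 345 ± 25.2 CPM and Mgst2. Chac1, which degrades glutathione, was at 167 ± 8.91 CPM. Gstt2 had no count.

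In the thioredoxin system the cytosolic genes exceeded the mitochondrial ones. Txn1 (Entrez 22166, chromosome 4, 57943373 to 57956411), the cytosolic thioredoxin, had 560.3, 696 and 662 CPM, with replicate 1 lowest. Txn2, its mitochondrial form, had 294, 315 and 298 CPM. Txn1 was 8.44-fold higher per kb (log2 ratio 3.08 ± 0.13), and 4.11-fold on principal transcripts. The reductases that recharge thioredoxin with NADPH showed the same order. Txnrd1 (Entrez 50493, chromosome 10, 82833951 to 82897724, cytosolic) had 752, 665 and 716 CPM and Txnrd2 (mitochondrial) was at 28.7 ± 1.55 CPM, a ratio of 15.4-fold per kb (log2 ratio 3.95 ± 0.08). Both reductases were highest in replicate 1, where Txn1 and Txn2 were lowest. Txnip, which binds and inhibits thioredoxin, had 107, 103 and 114 CPM, at 0.0571 times the level of Txn1 per kb. Exons of Gm15441 cover 19.4% of its exon bases.

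All 6 peroxiredoxins, which reduce peroxides with thioredoxin or glutathione, exceeded 100 CPM. Prdx6 (Entrez 11758, chromosome 1, 161240112 to 161251210), the 1-cysteine form that uses glutathione, had 781, 843 and 769.7 CPM. Prdx2 had 567, 674 and 636 CPM and Prdx1 (Entrez 18477, chromosome 4, 116685599 to 116700000) had 447, 489 and 494 CPM. Both are cytosolic. Per kb, Prdx1 was at 0.765 times the level of Prdx2 (log2 ratio -0.39 ± 0.06). Of their 50-base windows, 23.8% for Prdx2 and 10.9% for Prdx1 occur in other genes, so this ratio is uncertain. Exons of Rnaseh2a and Junb cover 11.5% of the merged exon bases of Prdx2. Prdx6 and Prdx1 did not keep 1 order per kb (log2 ratio 0.08 ± 0.09, Prdx6 higher in 2 of 3 libraries). On principal transcripts Prdx6 was 1.61-fold higher on average. The mitochondrial Prdx3 had 396, 437 and 405 CPM. Prdx5 had 169, 197 and 192 CPM. Exons of Trmt112 cover 19.1% of its merged exon bases, and 29.7% of its 50-base windows occur in that gene. Prdx3 was 3.22-fold above Prdx5 per kb (log2 ratio 1.69 ± 0.07), and 1.90-fold on principal transcripts, but this ratio is uncertain for the same reason.

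Prdx4, the form of the endoplasmic reticulum, had 197, 228 and 229.7 CPM, and its order to Prdx1 per kb turned with the length used (log2 ratio -0.60 on merged exons and 0.08 on the principal transcript). Srxn1, sulfiredoxin, which restores overoxidized peroxiredoxins, had 135, 132 and 138 CPM, at 0.306 times the level of Prdx1 per kb (log2 ratio -1.71 ± 0.08). Its CV was 2.20% against 2.03% from counting error. None of the 7 genes was highest in replicate 1, against 45.7% of the 11224 detected genes. This share depends on length, and the 7 genes have merged exons of 1.48 (Prdx3) to 4.80 kb (Prdx6). Among all genes at 100 CPM or more it was 8.96% from 1 to 2 kb, 32.2% from 2 to 4 kb and 53.5% from 4 to 8 kb.

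Of the superoxide dismutases, Sod1 lay at percentile 94.4 of all detected genes per kb and Sod2 at 75.1, and the secreted Sod3 was close to the detection level. Sod1 (Entrez 20655, chromosome 16, 90220762 to 90226333, cytosolic copper-zinc form) had 342, 392 and 374 CPM. Sod2 (Entrez 20656, chromosome 17, 13007839 to 13018119, mitochondrial manganese form), a known NF-κB target, had 215, 206 and 198 CPM, a spread of 1.08-fold. Sod1 was 4.51-fold above Sod2 per kb on merged exons (log2 ratio 2.17 ± 0.15) and 16.4-fold on principal transcripts, since the merged exons of Sod1 are 3970 bases long and its principal transcript 641. Its rank among the 44 genes per kb moved with this from 21 to 5. Of the 50-base windows of Sod1, 23.1% occur in another gene, Gm8566, so its level and its ratio to Sod2 are uncertain. Sod3 had 3.59, 2.38 and 2.05 CPM, from 62, 43 and 38 counts, and was highest in replicate 1. Cat, catalase (Entrez 12359, chromosome 2, 103453904 to 103485153), had 168, 168 and 164 CPM, the smallest spread of the group, with a CV of 1.32% against 1.83% from counting error. Per kb Cat was at 0.174 times the level of Gpx1 (log2 ratio -2.53 ± 0.11).

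Iron storage and uptake genes were high and the iron exporter was almost absent. Fth1 (Entrez 14319, chromosome 19, 9980600 to 9985111), the ferritin heavy chain with ferroxidase activity, had 6366, 7431 and 7447 CPM, with replicate 1 the lowest and replicates 2 and 3 close together. Ftl1 (Entrez 14325, chromosome 7, 45457944 to 45459886), the light chain, had 85.7, 78.2 and 94.8 CPM. Fth1 was thus 31.7-fold above Ftl1 per kb (log2 ratio 4.99 ± 0.19), and 53.2-fold on principal transcripts. Of the 50-base windows of the Ftl1 transcript, 90.6% occur in other annotated genes, 17 in all, against 4.01% for Fth1. How reads that fit several places were counted is not given in the sources used here, so the level of Ftl1 is uncertain, and the ratio cannot be read as a difference between the ferritin chains.

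**Figure D4:**
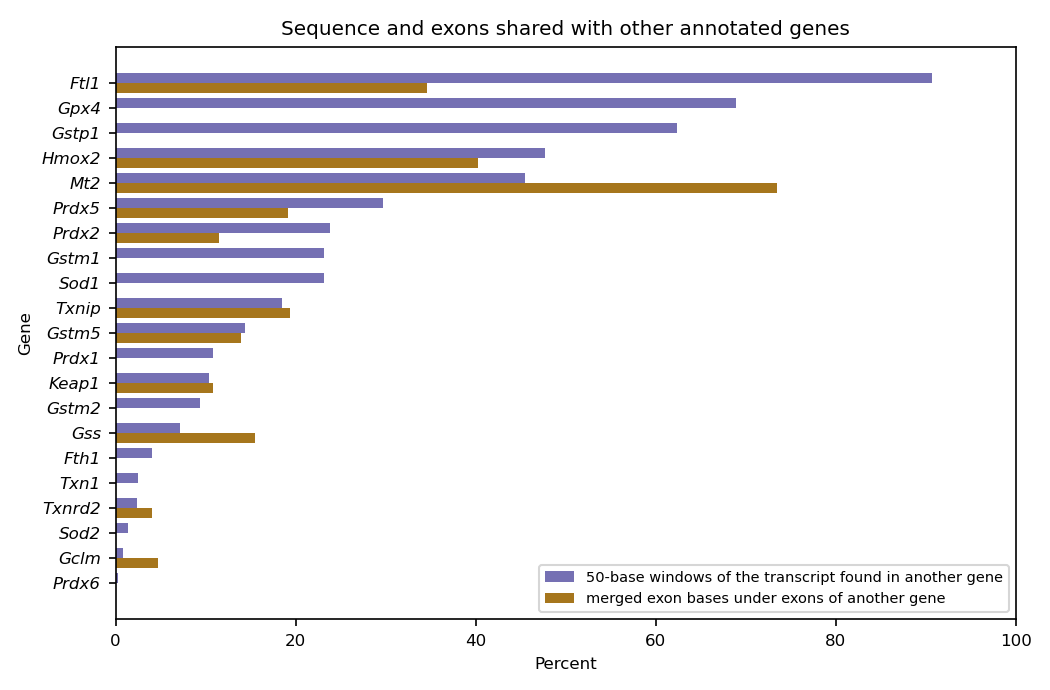
Share of the 50-base windows of each gene's principal transcript that occur in a transcript of another gene (purple), and share of its merged exon bases under exons of another gene (brown), in percent, for the 21 genes of the group where either is above 0. Ftl1, Gpx4, Gstp1, Hmox2 and Mt2 exceed 40% on the first measure, and Mt2 is the highest on the second at 73.5%.

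Tfrc (Entrez 22042, chromosome 16, 32608896 to 32632794), the receptor that takes up transferrin-bound iron, had 581, 522 and 514 CPM, highest in replicate 1. Fth1 was 23.4-fold above it per kb (log2 ratio 4.55 ± 0.23), and 42.95-fold on principal transcripts. Slc40a1 (Entrez 53945, chromosome 1, 45908070 to 45926532), ferroportin, the known cellular iron exporter, had 31, 51 and 37 counts, or 1.80, 2.82 and 1.99 CPM. Per kb it was at 0.00276 times the level of Tfrc (log2 ratio -8.50 ± 0.40), or 0.00583 times on principal transcripts, in ranges far apart in all 3 libraries. Of 21 other iron and haem genes, 16 were detected. Highest were the poly(C)-binding proteins Pcbp1 at 258 ± 5.001 CPM and Pcbp2 at 244 ± 12.1 CPM, which deliver iron to ferritin, and Fbxl5, the iron sensor that degrades IRP2, at 155 ± 2.03 CPM. The iron regulatory proteins were present at 94.5 ± 11.6 CPM (Aco1, IRP1) and 103 ± 8.23 CPM (Ireb2, IRP2). The ferritin receptor for autophagy, Ncoa4, was at 12.01 ± 2.63 CPM. Hamp, the hormone hepcidin that removes ferroportin, had no count, and the oxidases that work with ferroportin were at 29.04 ± 6.07 CPM (Cp) and 0.551 ± 0.415 CPM (Heph).

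The metallothioneins Mt1 and Mt2, small proteins that bind zinc and copper, were both above 100 CPM. Mt1 (Entrez 17748, chromosome 8, 94178883 to 94180327) had 195, 229 and 236 CPM, and Mt2 (Entrez 17750, chromosome 8, 94172618 to 94173567) had 159, 206 and 198 CPM. Both were lowest in replicate 1, outside the range of the other libraries, with log2 ratios of replicate 1 to the mean of the others of -0.25 and -0.34. The order of the pair turned with the length (log2 ratio of Mt1 to Mt2 -0.85 on merged exons and 0.13 on principal transcripts), and exons of Gm45774 cover 73.5% of those of Mt2. MTF1, which activates both genes, was at 8.40 ± 0.707 CPM as transcript (Mtf1). The zinc exporter Slc30a1 was at 1.19 ± 0.455 CPM, Mt3 was at 2.06 ± 0.301 CPM, and Mt4 had 0, 3 and 0 counts.

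The 2 genes are neighbours on chromosome 8, and their promoters are shown because metal response elements in them are known to drive both. The core searched was TGCNCNC on both strands, which is short and occurs in 51% of all windows. Capitals mark each match or its reverse complement, and the stretches run 5′ to 3′ on the plus strand:
Mt2 (chr8:94172368-94172647): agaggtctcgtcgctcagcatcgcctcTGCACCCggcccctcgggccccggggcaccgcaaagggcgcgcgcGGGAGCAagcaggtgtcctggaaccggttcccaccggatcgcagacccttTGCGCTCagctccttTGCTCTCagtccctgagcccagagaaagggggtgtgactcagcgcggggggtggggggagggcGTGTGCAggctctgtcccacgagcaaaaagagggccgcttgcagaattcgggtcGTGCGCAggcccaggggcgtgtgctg
Mt1 (chr8:94179039-94179118): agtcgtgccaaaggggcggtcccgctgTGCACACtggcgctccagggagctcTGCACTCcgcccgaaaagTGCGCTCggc
The promoter window of Mt2 held 6 matches, a number reached by 0.225% of the 32851 windows. That of Mt1 held 3, which 7.10% of windows reached. Counted from the transcript start of the window, the matches of Mt1 began at bases -23, 3 and 21. The last match of Mt2 began at base 5, so not all matches lie before the start. The stretch printed for Mt1 lies within the gene positions given above. No binding was measured, and none of the matches overlaps the antioxidant response core of Mt2 shown earlier.

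Between libraries the 42 detected genes varied little, with a median CV of 6.49% against 8.56% over all detected genes. Counting error alone gave medians of 1.62% and 4.22%, at median levels of 212 and 31.3 CPM. More than 1.5-fold between the highest and the lowest library was seen in 2 of 42 genes, Sod3 and Slc40a1, against 9.33% of the detected genes. Both had at most 62 counts in a library. Without replicate 1 the count was 0, without replicate 2 it was 1, and without replicate 3 it was 2. Leaving out replicate 1 moved the means of the detected genes to between 0.828 (Sod3) and 1.09 (Slc40a1) times their value.

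The small differences had a common direction. Of the 42 detected genes, 26 were lowest in replicate 1, against 30.2% of all detected genes. Only 8 of 42 were highest there (Keap1, Gss, Gsr, Txnrd1, Txnrd2, Sod2, Sod3 and Tfrc), against 45.7%. Replicate 2 was highest for 21 of 42, against 27.1%, and replicate 3 for 13, against 27.3%. The median log2 ratio of replicate 1 to the mean of replicates 2 and 3 was -0.12 in the group, from -0.34 (Mt2) to 0.59 (Sod3), and 0.04 over all detected genes. With scaling factors from TMM, which trims extreme genes, the medians were -0.17 and 0.00, and the 8 of 42 stood against 37.6%.

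The direction went with transcript length. All 8 genes that were highest in replicate 1 had merged exons of 2.75 kb or more. None of the 16 detected genes under 2 kb was highest there, while 14 of these 16 were lowest. Of all detected genes, 11.9% under 1 kb and 19.5% from 1 to 2 kb were highest there. For the lowest place only the share at any length, 30.2% of detected genes, was counted. The same gradient ran through all genes at 100 CPM or more, with median log2 ratios of -0.29 under 1 kb (49 genes), -0.14 from 1 to 2 kb (279), -0.02 from 2 to 4 kb (805), 0.05 from 4 to 8 kb (778) and 0.08 above (372). Among these, 8.96% of the genes of 1 to 2 kb were highest in replicate 1. In the same 1 to 2 kb class, the 12 genes of the group at 100 CPM or more had a median of -0.16. From 2 to 4 kb the 12 of the group had -0.13, below the -0.02 of all genes there. Genes of the group above 4 kb did not all go this way, with -0.06 for Txn2 and -0.05 for Prdx6. Of the 2 genes of the group from 8 kb, Sod2 had 0.09 and Slc40a1, from few counts, -0.34. Spearman's rho between length and this ratio was 0.54 across the 42 genes and 0.30 across 10886 detected genes, and for the ratio of replicate 2 to replicate 3 it was 0.04 and -0.08. Genes of the same libraries are not independent replicates. The parts that length and the higher interferon-stimulated genes of replicate 1 have in the low values of the group there were not tested.

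**Figure D5:**
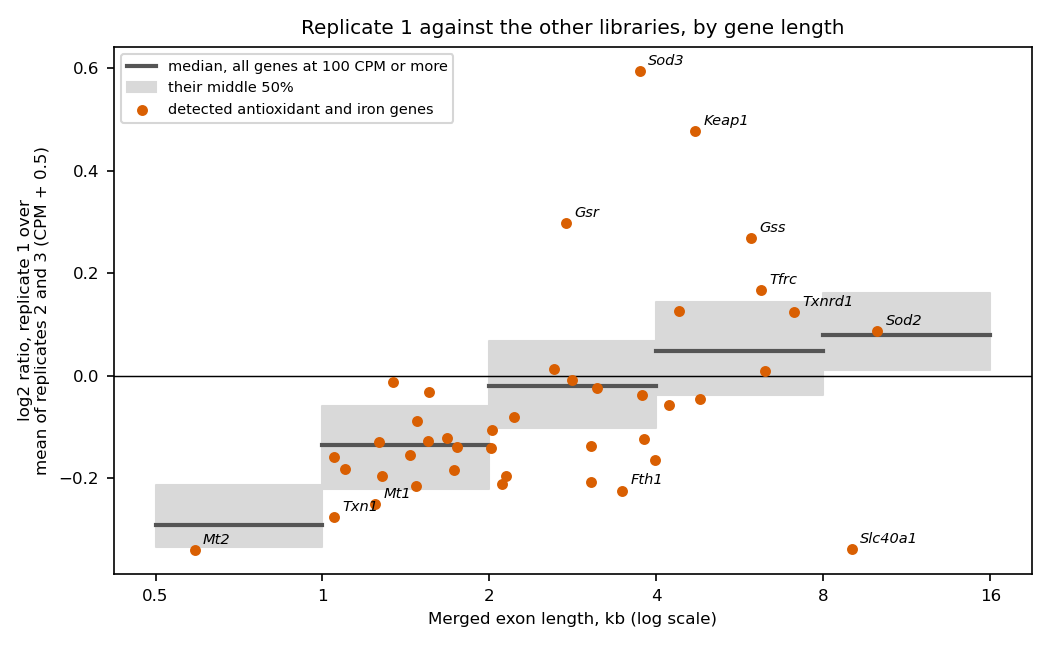
The log2 ratio of replicate 1 to the mean of replicates 2 and 3 (y axis, CPM + 0.5) against merged exon length (x axis, log scale) for the 42 detected genes (orange). Grey lines and boxes give the median and middle 50% of all genes at 100 CPM or more by length class, with the classes under 1 kb and from 8 kb drawn to 0.5 and 16 kb; Mt2 and Txn1 lie low among short genes, Tfrc, Txnrd1 and Sod2 lie above 0 among long ones, and the long genes Slc40a1, Prdx6 and Txn2 lie below 0.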

How the data were processed

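PolyA RNA of 3 IL-1 libraries was analysed. Per the labels' protocols, cells were lysed with detergent, reverse transcribed without RNA extraction, pre-amplified for 10 cycles and tagmented. No molecular identifiers are mentioned, so counts are reads. The deposited tables hold raw counts per Entrez ID. The submitters' processing notes name mm10, featureCounts, STAR and CASAVA. Versions, annotation, strand setting and treatment of multi-mapping reads: not given in the sources used here. The 9 tables that were copies of IL-1 replicate 3 were left out.

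CPM were computed from library totals (17254518 to 18578859). Symbols were taken from RefSeq, GRCm38.p6 (25275 of 27179 IDs matched), lengths, exon overlaps and 50-base windows from GENCODE M21 on the same assembly, and promoters from RefSeq. Ratios between libraries used log2(CPM + 0.5), and were checked on simulated counts. Scaling factors were made with edgeR 4.0.16 (R 4.3.3). Other values used Python 3.11.15, numpy 2.4.6, pandas 2.3.3 and scipy 1.17.1.

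The 44 genes and the lists were chosen with earlier results of these data known. All 44 are named. Values per library are given for genes at 100 CPM or more, below 1 CPM or past 1.5-fold, and for Nfe2l2, Keap1, Gclc, Gclm, Sod2, Tfrc and Slc40a1. Other genes are given by mean and SD, except Ftl1. Of each pathway list, the 3 highest are named, and members with no count; others were chosen after their values were seen. With 1 group, no test was made.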

Additional observations from a re-analysis of the deposited data

How the results depend on the processing

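No paired analysis was possible because the 3 libraries form a single group. With TMM or relative log expression scaling, and with any 1 library left out, the number of detected genes, of genes at 100 CPM or more and, under the scalings, of genes highest in replicate 1 stayed within 1.5 times their values. All 215 recomputed means of single genes moved by at most 1 SD, which leaving out 1 of 3 libraries gives by construction. The count of genes past 1.5-fold between libraries (2) ranged from 0 to 2 when a library was left out. At a minimum of 5 CPM, which removes Sod3 and Slc40a1, it was 0 of 40. The share of all genes past 1.5-fold was then also lower, at 3.53%. Without Fth1 and Ftl1 the group took 1.20% of counts in place of 1.92%. The antioxidant response core was found in 9 of the 48 windows on both strands, and 2 stricter searches found fewer. On the given strand it was in 3 of the 48, or 6.25%, close to the 6.38% of all windows. With a further A after the core it was in 1, or 2.08%, against 3.04% of all windows. Among recomputed ratios between partners, 116 moved by less than 1 SD, 57 by more, and 9 turned, in 4 of the 26 pairs. The 116 include all ratios with 1 library left out, where this too holds by construction. All ratios that moved by more or turned did so with another length or with no length correction. With the longest transcript, the log2 ratio turned to 0.065 for Gss/Gclc, -0.53 for Mgst3/Mgst1 and 0.033 for Prdx4/Prdx1. With the principal transcript, a setting added after the data had been seen, these were 0.80, -0.53 and 0.083, and Mt1/Mt2 turned to 0.13. With no length correction, Mgst3/Mgst1 was -0.62 and Mt1/Mt2 0.23. Depth limits what can be said of Gpx3 and Gpx7.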
